A study of Mus musculus with 4 samples.

Results

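Cholesterol is built from acetyl-CoA in a chain of enzymes that first makes mevalonate and isoprenoid units, then squalene, and then closes and trims the sterol rings. The 8 enzymes described here are Hmgcs1, Mvd, Idi1, Fdps, Fdft1, Sqle, Lss and Cyp51. They were taken by gene symbol from the 27998 genes counted in mouse hematopoietic stem and progenitor cells, and each symbol matched 1 gene. The set was chosen by measured values of these same libraries, namely the lower Fdps level in Nup358 knockout cells that carry much Elane RNA, so this contrast is given as a description without a test. Hmgcs1 acts early in the mevalonate steps. Mvd and Idi1 make and interconvert the isoprenoid units, and Fdps, farnesyl diphosphate synthase, joins them into the last intermediate that sterols share with prenylated proteins, dolichol and ubiquinone. Fdft1 commits farnesyl diphosphate to squalene, Sqle oxidizes squalene, Lss closes the rings into lanosterol and Cyp51 removes a methyl group from it. In most tissues these genes are under the control of the SREBP-2 transcription factor (Srebf2), which is released when sterols in the endoplasmic reticulum are low, so that they often rise and fall together.

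Nup358, also called RanBP2, is a nucleoporin on the cytoplasmic side of the nuclear pore. Control mice were Nup358 fl/fl, which the sample labels call wild-type, and knockout mice were Nup358 fl/fl with R26-CreERT2, a Cre recombinase made in all tissues and switched on by tamoxifen. Mice of 9 to 12 weeks received tamoxifen on 3 days. The paper's marrow flow cytometry was done 5 days after the first dose, and its text gives no day for these libraries. Since the Cre is made in all tissues, the deletion also affects the rest of the marrow and of the body. CreERT2 itself is not carried by the controls. Lin-Sca1+cKit+ (LSK) cells were sorted from bone marrow and counted with 3′ single-cell RNA-seq in 4 libraries, 2 per genotype, each pooled from 3 mice. P-values for knockout against control therefore measure the spread between at most 2 libraries per genotype. Those for groups of cells compared within libraries measure the spread of the group difference over 2 to 4 libraries, with genotypes pooled. Transcripts of Ranbp2, the gene of Nup358, were at 127 and 101 UMIs per 1000000 UMIs (CPM) in the control libraries and at 124 and 126 CPM in the knockout libraries. The deletion takes out an early exon, and 3′ counts outside the deleted part do not check it.

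The deposited barcodes numbered 25242, and 24973 of them had at least 200 genes and at most 10% mitochondrial UMIs. Of these, 10932 had a barcode sequence that also occurred in another library with a UMI total there at least 3 times larger, and they were left out, which left 14041 cells. They were unequally spread, with 7830 and 1200 cells in control replicates 1 and 2 and 1589 and 3422 cells in knockout replicates 1 and 2. Before copies were left out these libraries held 9198, 6793, 4749 and 4233 cells, so much of the unevenness came from this step. Of the deposited barcodes, 14.8%, 81.8%, 65.3% and 18.8% were copies, in the same order. The used cells held 18846887 to 59033602 UMIs per library, with medians of 6251 to 17707 UMIs per cell and the lowest median in control replicate 1. Results that rest on the few cells left in a gate are given below also with the copied barcodes included. Whether copied barcodes hold RNA of the other library was not tested, so these values are not a separate check. Kit and Ly6a, the genes of the surface markers sorted for, were at 73.3 to 103 CPM and 133 to 317 CPM per library. Cells were put into 9 overlapping gates by marker UMIs, at least 5 per 10000 UMIs of the cell, and the 916 cells in no gate served as reference.

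The RefSeq promoter table for GRCm38.p6 held 5 of the 8 enzymes (Hmgcs1, Mvd, Idi1, Lss and Cyp51), as windows of 300 bases that reach from 250 bases before to 50 after the start. Hmgcs1 and Mvd are shown because the first holds TCACNCCAC, letters of the sterol regulatory element that SREBP binds, and the second was the enzyme beside Fdps that rose in Elane-high cells. Both run 5′ to 3′ on the gene's strand and end just before the start, Hmgcs1 at chr13:119690101-119690350 (plus strand) and Mvd at chr8:122443423-122443672 (minus strand). Capitals mark CCAAT on either strand and, in Hmgcs1, the letters TCACNCCAC.
Hmgcs1: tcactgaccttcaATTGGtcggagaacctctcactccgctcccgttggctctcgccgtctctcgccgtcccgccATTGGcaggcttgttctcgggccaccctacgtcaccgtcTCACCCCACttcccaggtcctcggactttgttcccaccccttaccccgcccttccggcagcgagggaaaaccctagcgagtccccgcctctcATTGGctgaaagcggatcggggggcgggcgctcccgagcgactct
Mvd: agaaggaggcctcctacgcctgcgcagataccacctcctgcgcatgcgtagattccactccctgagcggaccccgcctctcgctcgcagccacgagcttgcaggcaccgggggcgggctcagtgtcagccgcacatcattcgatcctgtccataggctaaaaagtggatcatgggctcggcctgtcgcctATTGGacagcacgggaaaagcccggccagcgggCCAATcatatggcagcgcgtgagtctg
A stricter, longer form of this element was in 0 of the 5 windows and in 0.0913% of all. The letters TCACNCCAC, searched like the others on both strands, were in 1 of the 5 windows (Hmgcs1) and in 1.24% of 32851 promoter windows. CCAAT, the letters of the NF-Y box, was in 5 of 5 and in 37.4% of all, GGGCGG, a GC box, in 5 of 5 and in 35.7%, and CACGTG, an E-box, in 0 of 5 and in 7.15%. These are matches of letters only, and Fdps, Fdft1 and Sqle were not in the table.

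On GRCm38 the enzymes lie apart, on chromosomes 13 (Hmgcs1 and Idi1), 8 (Mvd), 3 (Fdps), 14 (Fdft1), 15 (Sqle), 10 (Lss) and 5 (Cyp51). Fdps (chr3:89093588-89101959, minus strand) shares exons with Gm43738, a gene model on the same strand, including 197 of the 256 bases of its last exon. Reads in the shared part may not have been assigned to either gene, which was not tested, so the Fdps level is uncertain in every library. Gm43738 itself counted 0 to 4 UMIs per library. Fdft1 and Ctsb, and Cyp51 and Akap9, overlap at their ends on opposite strands, and Ctsb (72.1 to 88.7 CPM) and Akap9 (98.1 to 112 CPM) are both expressed.

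None of the 8 enzymes differed between knockout and control outside the Elane-high gate once all genes tested were accounted for. Fdps came nearest. In cells outside the gate it was at 59.4 and 64.6 CPM in the control libraries and at 46.5 and 40.5 CPM in the knockout libraries. Both knockout libraries lay below both control libraries, as they did for 27.8% of genes of at least 5 CPM. The log2 fold change was -0.51 (SE 0.15), and the unadjusted p of 0.012 became an adjusted p of 0.105 with edgeR's quasi-likelihood test. Of 13549 genes tested, 336 (2.48%) were called at an adjusted p under 0.05, 119 (0.878%) higher and 217 (1.6%) lower in the knockout, and 0 of the 8 enzymes were among them. At an unadjusted p under 0.05 there were 3360 genes and, among the enzymes, Fdps, and DESeq2 called 1014 genes and 0 of the enzymes. The enzyme next after Fdps in the chain, Fdft1, was at 14.6 and 18.0 CPM in control and at 12.1 and 12.7 CPM in knockout, a log2 fold change of -0.38 (SE 0.18, adjusted p = 0.241). The other 6 enzymes lay between -0.09 and 0.13 on the log2 scale, with adjusted p-values from 0.712 to 0.920. Idi1, for instance, was at 29.0, 38.8, 36.2 and 37.3 CPM in control replicates 1 and 2 and knockout replicates 1 and 2, so that the control replicates differed more from each other than from the knockout. The SE of these 6 estimates was between 0.13 and 0.20. Fdps at -0.51 with an SE of 0.15 was not called, so changes well beyond 1 SE could also have been missed.

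The call for Fdps outside the Elane-high gate turned on single choices. It passed the threshold without control replicate 1 (adjusted p = 0.0181), where Fdft1 passed too (log2 fold change -0.56, adjusted p = 0.0265), without the filter on low counts (adjusted p = 0.0479) and with crossed replicate numbers as a block (adjusted p = 0.0408). Without knockout replicate 2 the adjusted p of Fdps was 0.726. The fold change itself stayed between -0.60 and -0.41 in all 14 alternatives. In cells with no Elane UMI and few UMIs of the granule genes Mpo, Prtn3 and Ctsg the Fdps estimate was -0.58 (adjusted p = 0.131). Markers of other cells also differed between these libraries. Outside the gate the 5 mature neutrophil genes summed to 330 and 2137 CPM in control and 94.8 and 116 CPM in knockout, and the 3 plasma cell genes to 122 and 313 against 658 and 437 CPM, all listed genes being above 0 in every library. Their part in the Fdps estimate was not tested. The share of G2/M-high cells outside the gate was 51.0% and 28.8% in control and 67.7% and 74.9% in knockout. With G2/M-high cells left out, 0 of the 8 enzymes and 9.31% of genes were called.

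**Figure D1:**
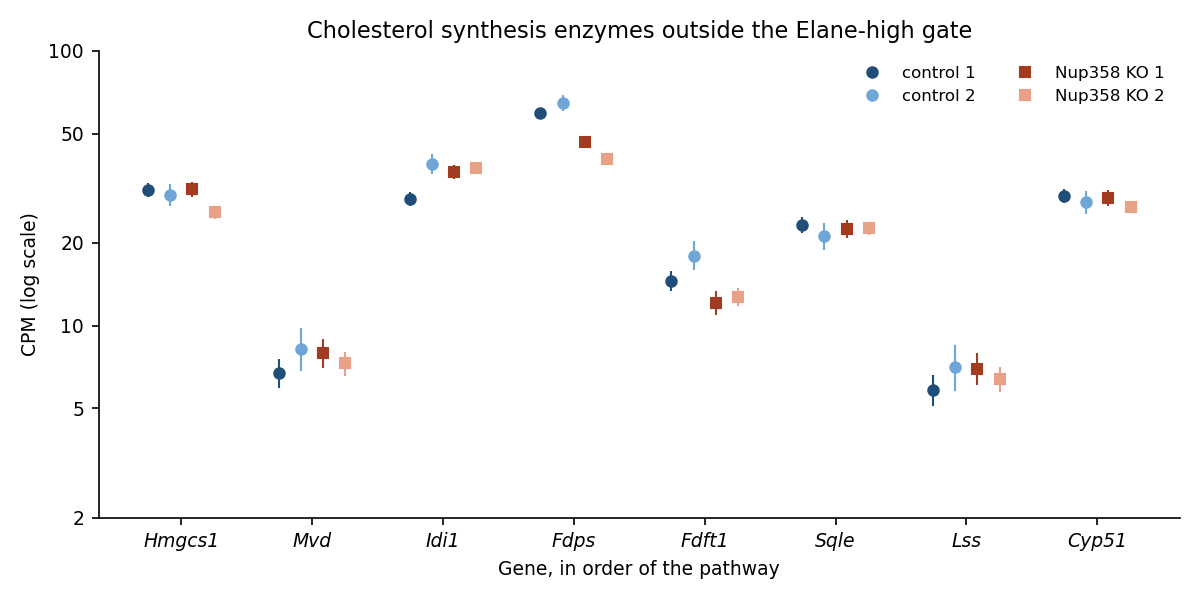
CPM of each enzyme (log scale, genes in the order of the pathway) in the cells outside the Elane-high gate, 1 point per library (circles control, squares knockout) with the 95% Poisson counting interval. For Fdps both knockout points (46.5 and 40.5 CPM) lie below both control points (59.4 and 64.6 CPM), and the same holds for Fdft1, whereas the points of the other 6 enzymes overlap.

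The related genes gave a like picture outside the Elane-high gate. Of 13 other cholesterol synthesis enzymes tested, 0 were called, with a median log2 fold change of -0.15, where the median over all genes tested was -0.01. None of the 10 genes of sterol sensing and SREBP processing was called either. Insig1, which holds SREBP back in the endoplasmic reticulum, was at 25.1 and 40.1 CPM in control and 18.3 and 16.7 CPM in knockout (log2 fold change -0.89, SE 0.25, adjusted p = 0.094). Msmo1, a sterol demethylating enzyme, was at -0.66 and Srebf2 at -0.26, neither of them called. The 8 isoprenoid branch genes and the 8 genes of sterol efflux and storage also held 0 calls each. The 1 call among 10 fatty acid synthesis genes was Scd1, stearoyl-CoA desaturase, with 0.715 and 0.666 CPM in control and 3.97 and 5.56 CPM in knockout (2.79, SE 0.31, adjusted p = 0.0176). In the Pro-B gate, which held 43 and 9 control cells and 131 and 343 knockout cells, Scd1 was at 113 and 88.7 CPM in the knockout libraries and counted 1 and 2 UMIs in the control libraries. The part of the Pro-B cells in the Scd1 call was not tested.

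In the Elane-high gate, that is in cells with at least 5 Elane UMIs per 10000, Fdps was at 133 and 169 CPM in the control libraries and at 53.3 and 93.0 CPM in the knockout libraries. This is the contrast by which the enzymes were picked, and the log2 ratio of the means of -1.05 (151 ± 24.9 against 73.1 ± 28.1 CPM, SD, n = 2 each) is a description. The knockout values rest on 40 and 42 Fdps UMIs in 27 and 21 cells, with 95% counting intervals of 38.0 to 72.5 and 67.0 to 126 CPM, against 2651 and 646 UMIs in 1578 and 126 control cells. With the copied barcodes included, the gate held 385 and 179 barcodes in the knockout libraries, most of them copies. Fdps was at 85.2 and 94.7 CPM there, against 133 and 158 CPM in control. Whether the RNA of the copies came from knockout cells was not tested. Both knockout libraries lay below both control libraries in either case, as did 20.8% of genes of at least 5 CPM with the copies left out. The log2 ratio was -0.70 without knockout replicate 1 and -1.504 without knockout replicate 2. It was -1.78 after each cell was thinned to 2000 UMIs. Thinning dropped cells below that depth, and the gates were drawn anew on the thinned counts, so that ratio describes partly other cells.

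The other 7 enzymes did not share the lower level of Fdps in these cells. Summed, they were at 123 and 116 CPM in control and at 133 and 108 CPM in knockout. The knockout libraries gave only 1 to 22 UMIs per enzyme here, so that the ratios of single enzymes are coarse. Fdft1 alone among the 7 had groups that did not overlap, in the opposite direction to Fdps, with 9.82 and 11.5 CPM in control and 15.98 and 13.3 CPM in knockout from 12 and 6 UMIs, where 21% of genes had both knockout libraries above both control libraries. After thinning its log2 ratio turned from 0.46 to -0.17. With the copied barcodes included, Fdft1 overlapped (9.89 and 12.3 CPM in control, 18.2 and 10.2 CPM in knockout). Hmgcs1 was then apart and lower in knockout (28.6 and 26.9 against 24.8 and 24.8 CPM), and Mvd was apart and higher (13.1 and 10.1 against 14.1 and 14.6 CPM), from 10 to 30 knockout UMIs each. Most knockout barcodes are copies there, and the share of all genes apart was not computed, so nothing is read from these orders. With the copies left out, Cyp51 had 29.3 and 11.1 CPM in the knockout libraries, on both sides of the control values of 22.9 and 19.6 CPM.

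Within the gate, Fdps in the control libraries was higher the more Elane a cell carried. At 5 to 20 Elane UMIs per 10000 it was at 96.7 and 85.4 CPM, at 20 to 100 it was at 139 and 201 CPM, and at 100 or more it was at 192 and 227 CPM, the last value from 13 cells. The knockout cells lay nearly all in the lowest range, 25 of 27 in replicate 1 and 17 of 21 in replicate 2, where Fdps was at 53.2 and 59.99 CPM. Their summed Elane level was 1096 and 1647 CPM, against 5336 and 5167 CPM in control. The Elane-high cells of the genotypes are thus not alike in Elane, and how far this enters the Fdps ratio was not tested. In the lowest range the knockout values were below those of control, from 36 and 22 UMIs. The share of all genes apart was not computed for any of these ranges. At 20 to 100 the few knockout cells lay on both sides of control, at 54.1 CPM in 2 cells of replicate 1 and at 235 CPM in 4 cells of replicate 2. With the copied barcodes included, the groups were apart only in the lowest of the 3 ranges, at 96.1 and 83.5 CPM in control and 50.4 and 54.9 CPM in knockout. At 20 to 100 they overlapped, with 140 and 189 CPM in control and 121 and 192 CPM in knockout (log2 ratio -0.07), and at 100 or more they overlapped too, with 191 and 209 CPM against 229 and 82.8 CPM, the last value from 7 UMIs. Only 2 and 4 of the knockout barcodes at 20 to 100 were not copies, and those at 100 or more were all copies. Neither these overlaps nor the order in the lowest range therefore shows whether the genotypes differ at like Elane.

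Other markers moved with the gate as well. The 5 mature neutrophil genes (S100a8, S100a9, Camp, Ngp and Ltf) summed to 244 and 1985 CPM in the control and 960 and 6393 CPM in the knockout libraries of the gate, with all 5 above 0 in control and 4 above 0 in each knockout library. The 7 basophil and mast cell genes summed to 82.2 and 70.0 CPM in control and to 170 and 682 CPM in knockout. Their part in the Fdps ratio was not tested.

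**Figure D2:**
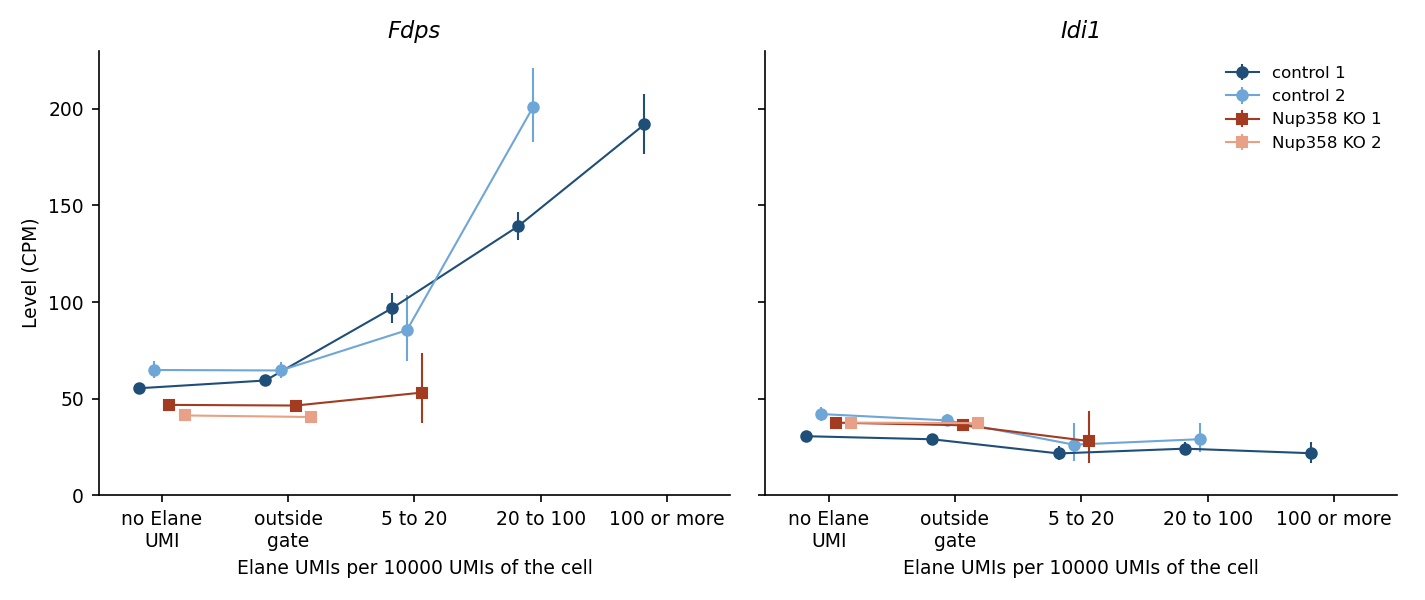
Level in CPM of Fdps (left) and Idi1 (right) by the Elane content of the cells, 1 line per library, with 95% Poisson counting intervals and only groups of at least 20 cells. The control lines of Fdps climb from about 60 CPM outside the gate to 192 CPM at 100 or more Elane UMIs per 10000 in replicate 1, while Idi1 stays under 45 CPM in all groups and knockout libraries reach no further than the range of 5 to 20.

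The same direction was seen for Fdps across the other gates with at least 20 cells in every library. In all 6 of them (monocyte and dendritic, megakaryocyte, erythroid, Dntt lymphoid, stem-like and G2/M-high) both knockout libraries lay below both control libraries, where 20.6% (G2/M-high), 21% (monocyte and dendritic), 22.3% (erythroid), 22.7% (megakaryocyte), 25.1% (Dntt lymphoid) and 26% (stem-like) of genes of at least 5 CPM did so. The gates share cells, libraries and controls, so the 6 are not 6 separate observations. The monocyte and dendritic and the G2/M-high gates held 90.4% and 83.2% of the Elane-high cells. Their Fdps values therefore partly repeat the contrast that chose the set. Stem-like cells, where Elane was at 54.3 and 10.0 CPM in control and 1.24 and 2.04 CPM in knockout, had Fdps at 48.3 and 54.7 CPM in control and 37.1 and 33.8 CPM in knockout, a log2 ratio of -0.54. The ratio was -0.55 in the megakaryocyte, -0.47 in the erythroid and -0.33 in the Dntt lymphoid gate. It was larger in the gates that hold most Elane-high cells, -1.08 in the monocyte and dendritic and -1.16 in the G2/M-high gate. In the ungated cells the groups overlapped, at 42.6 and 64.8 CPM in control and 47.5 and 35.7 CPM in knockout (22.3% of genes). After thinning each cell to 2000 UMIs and drawing the gates anew, 3 of the 6 gates had the groups apart. The erythroid ratio then turned to 0.35. Among cells of 1 gate alone the groups were apart in 2 of the 3 gates with enough cells. The share of all genes apart was not computed in these settings. In the gates other than G2/M-high, more knockout than control cells were G2/M-high. Among stem-like cells these were 29.7% and 17.0% in control and 52.7% and 61.6% in knockout. The part of this difference in the Fdps ratios was not tested.

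Whether the knockout effect differed between a gate and the ungated cells was fitted for 7 gates, the Elane-high gate left out because the enzymes were picked there. The G2/M-high gate held 1457 and the monocyte and dendritic gate 1583 of the Elane-high cells, so with these cells in place the Fdps difference rests partly on the values that chose the set and is a description, -0.86 (SE 0.21) in the G2/M-high and -0.77 (SE 0.22) in the monocyte and dendritic gate, where 5.81% and 1.25% of genes were called. Without Elane-high cells the differences were -0.25 (SE 0.22, adjusted p = 0.658) and -0.23 (SE 0.22, adjusted p = 0.827), and neither was called. In the Dntt lymphoid, erythroid, megakaryocyte, stem-like and Pro-B gates 0 enzymes were called, and 0.864%, 0.477%, 0.456%, 0.403% and 0.171% of genes. The intervals are wide for the low enzymes. For Lss the SE of these differences ran from 0.49 to 1.60.

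Over all used cells, the summed level of the 8 enzymes was 219 and 230 CPM in control and 193 and 180 CPM in knockout, and Fdps alone was at 84.3 and 85.7 against 46.6 and 41.0 CPM, apart as in 22.9% of genes. Fdps made up 38.5% and 37.3% of this sum in control and 24.2% and 22.8% in knockout. Without Fdps the sum was 134 and 144 CPM in control and 146 and 139 CPM in knockout, which overlap. In this mixture, fewer cells with much Fdps RNA and less Fdps RNA per cell cannot be told apart, since the Elane-high cells made up 1578 of 7830 and 126 of 1200 control cells but 27 of 1589 and 21 of 3422 knockout cells.

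**Figure D3:**
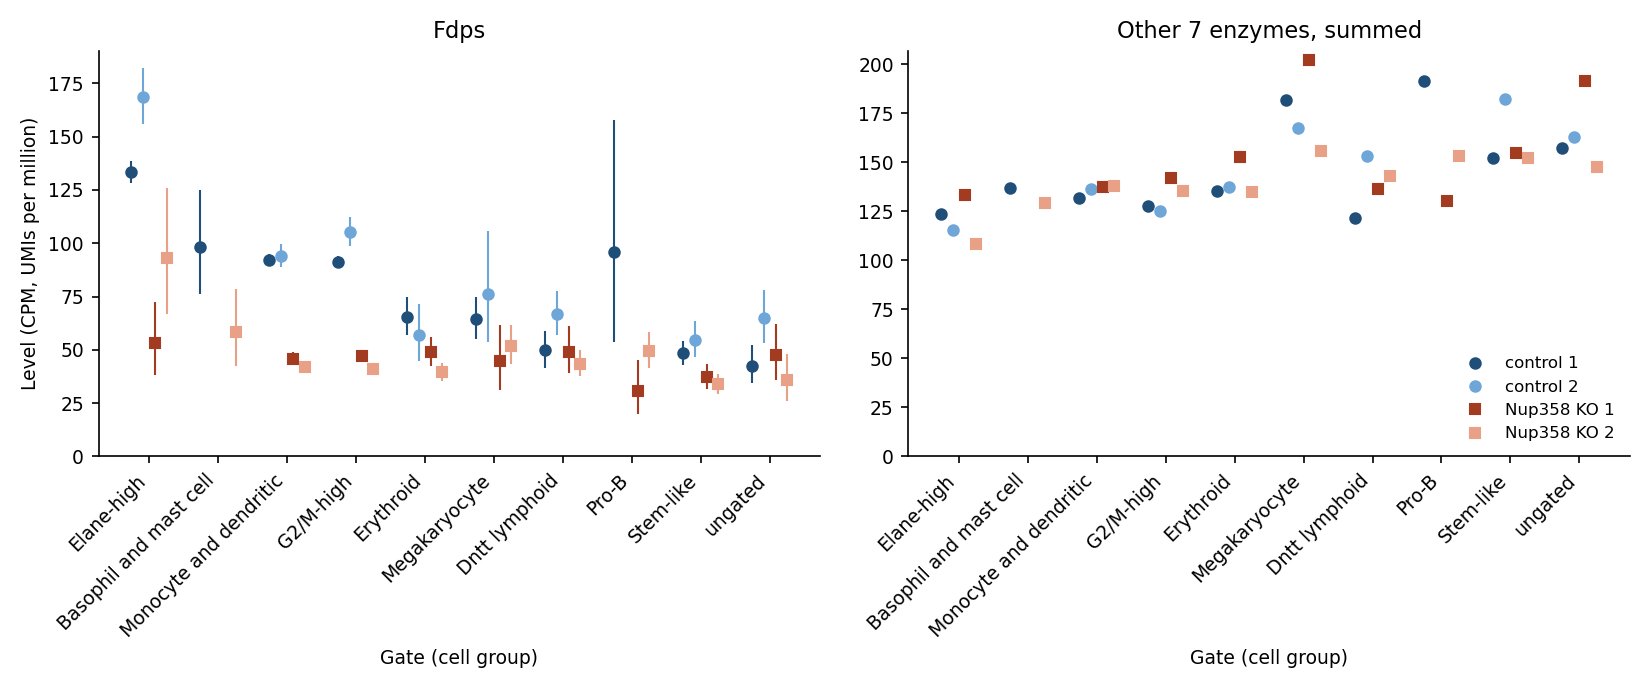
Level in CPM of Fdps (left, with 95% Poisson counting intervals) and of the other 7 enzymes summed (right) in each gate and in ungated cells, 1 point per library with at least 20 cells (circles control, squares knockout). Fdps is highest in the Elane-high cells of the control libraries (133 and 169 CPM) and lower in both knockout libraries of every gate with 4 libraries, ungated cells not counted, while the summed points of the other enzymes lie between 108 and 202 CPM without a common order.

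Among the cell types, Fdps followed a different order from most of the other enzymes. Its mean over the libraries was highest in Elane-high cells (112 CPM), then in the basophil and mast cell gate (78.3 CPM, 2 libraries), G2/M-high cells (71.1 CPM) and the monocyte and dendritic gate (68.5 CPM), and lowest in stem-like cells (43.5 CPM). Between neighbours in this order the spread of the libraries overlapped. The places of the G2/M-high and the monocyte and dendritic gates came from the control libraries (means of 98.2 and 92.9 CPM). In the knockout libraries alone, at 43.98 and 44.0 CPM, they lay below the megakaryocyte (48.2 CPM), Dntt lymphoid (46.3 CPM) and erythroid gates (44.2 CPM). Against ungated cells of the same library, Fdps rose in 4 gates. The log2 fold change was 1.37 (SE 0.18, adjusted p = 5.24e-05) in Elane-high cells, higher in 4 of 4 libraries, and it kept its call in all 12 alternatives tried. The rise was larger in control, with means of 151 CPM in Elane-high and 53.7 CPM in ungated cells, than in knockout, with 73.1 and 41.6 CPM. In knockout replicate 1 the ungated level lay within the counting interval of the Elane-high level. The fold change was 1.01 in the basophil and mast cell gate (adjusted p = 0.00404, with 8.02% of genes called). It was 0.60 in G2/M-high cells (adjusted p = 0.0185, 22.2%) and 0.57 in the monocyte and dendritic gate (adjusted p = 0.0138, 15.1%). With Elane-high cells left out of these gates the estimates were 0.78, 0.22 and 0.23 and none was called. The set was chosen from Fdps counts of the same Elane-high cells. The Fdps calls in the Elane-high gate, in its 12 alternatives and in gates that hold these cells are therefore not independent of that choice. The monocyte and dendritic gate is broad, since Cst3, one of its markers, was at 478 to 656 CPM over all cells. It held 8967 cells, 63.9% of all used, and so is not a single lineage. It took in 90.4% of the Elane-high, 63.1% of the Dntt lymphoid, 55.5% of the stem-like and 48.2% of the erythroid cells.

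In Elane-high cells 4 of the 8 enzymes differed from ungated cells, 2 higher and 2 lower, where 44.5% of 9487 genes tested did so (21.4% higher and 23.1% lower). The share is close to that of all genes. Mvd, which makes isopentenyl diphosphate, rose with Fdps, from 7.26 to 8.79 CPM in ungated cells to 8.61 to 13.3 CPM (log2 fold change 0.68, SE 0.25, adjusted p = 0.0414). Idi1 fell (-0.53, SE 0.14, adjusted p = 0.00781), from 32.3 to 47.2 CPM in ungated cells to 19.9 to 28.2 CPM, lower in 4 of 4 libraries. Cyp51 fell as well (-0.53, SE 0.16, adjusted p = 0.0163) and was lower in 4 of 4 libraries. Fdft1 (-0.45), Lss (-0.73), Hmgcs1 (-0.22) and Sqle (-0.19) had negative estimates that were not called. The calls of Mvd, Idi1 and Cyp51 were lost with DESeq2 (adjusted p from 0.0625 to 0.217), and those of Idi1 and Cyp51 also with all other cells in place of the ungated ones. In total, Mvd kept its call in 5 of 11 alternatives, Idi1 in 7 of 12 and Cyp51 in 5 of 12.

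Ungated cells are an uneven reference in more than 1 respect. By definition 0% of them are G2/M-high, against 84.6% and 61.1% of Elane-high cells in control and 88.9% and 100% in knockout. With G2/M-high cells left out, 1 enzyme was called higher and 1 lower in the Elane-high gate, where 30.5% of genes were called. Only the 2 control libraries had enough cells for this comparison. In the erythroid gate 0 enzymes and 3.09% of genes were then called. In ungated cells the 5 mature neutrophil genes summed to 959 and 4323 CPM in the control libraries and to 0.879 and 1357 CPM in the knockout libraries. The part of these neutrophil genes in the comparisons was not tested.

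**Figure D4:**
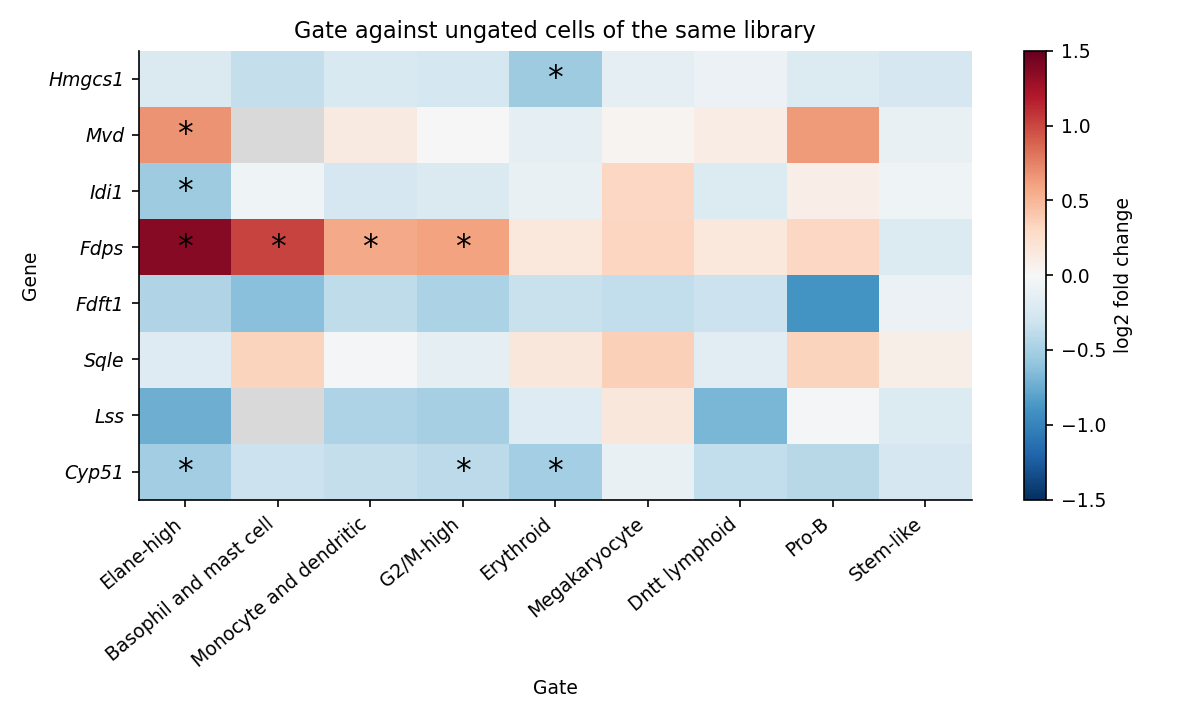
Log2 fold change of each enzyme (rows, in pathway order) in each gate (columns) against ungated cells of the same library, from red (higher in the gate) to blue (lower); asterisks mark an adjusted p under 0.05 and grey squares genes that did not pass the filter on low counts. The Fdps row holds 4 of the 5 calls of higher expression, and Cyp51 3 of the 5 of lower. Of all genes, 44.5% were called in the Elane-high, 22.2% in the G2/M-high and 15.1% in the monocyte and dendritic gate. The share was 9.55% in the erythroid and 8.02% in the basophil and mast cell gate. The Fdps calls use Elane-high cells, which chose the set, and outside that gate none was kept once these cells were left out.

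The rest of the pathway held genes that rose and genes that fell in Elane-high cells, as did 21.4% and 23.1% of all genes tested, whose median log2 fold change was -0.04. Calls were rarer than the 44.5% of all genes in 3 of the 5 lists and more frequent in the other synthesis enzymes and in sterol efflux and storage, and with 7 to 12 genes a list these counts are descriptions. Of 12 other cholesterol synthesis enzymes tested (median 0.03), 3 rose and 4 fell, some of which are named here after their values were seen. Mevalonate kinase, Mvk, rose (0.80, SE 0.21), as did the sterol isomerase Ebp (0.51) and Lbr (0.40), which is both a sterol reductase and an anchor of the nuclear lamina. Msmo1 (-0.52), Sc5d (-0.93) and Hsd17b7 (-1.003), which act after Cyp51, were among those that fell. Srebf2 itself fell (-0.81, SE 0.14), together with Insig1 (-0.49) and the sterol carrier Stard4 (-0.74), so that 3 of 9 genes of sterol sensing fell and 0 rose (median -0.22). Of 7 genes of sterol efflux and storage (median -0.85), Abca1 (-2.43), Abcg1 (-1.86), Mylip (-1.28) and Npc1 (-0.85) fell, the first 3 of them targets of the LXR receptors, while Soat1 (1.09), which makes cholesterol esters, and Npc2 (0.52) rose. Soat1 was at 44.3 to 49.0 CPM in Elane-high and 21.2 to 26.2 CPM in ungated cells, without overlap between the groups. In the isoprenoid branch Pdss1 (0.83), which builds the ubiquinone tail, and Rabggtb (0.50) rose and 0 of 8 fell (median 0.15). Of the 7 fatty acid genes Acss2 (-1.75) and Fads1 (-0.57) fell and 0 rose (median -0.25).

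**Figure D5:**
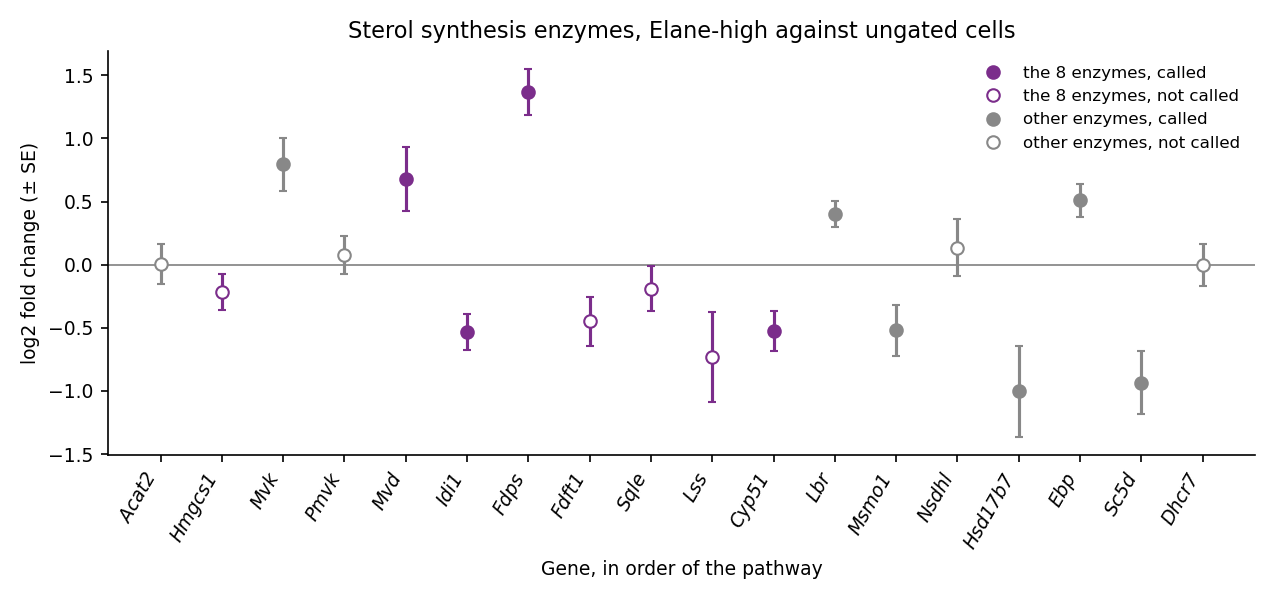
Log2 fold change with its SE of sterol synthesis enzymes in Elane-high against ungated cells, in the order of the pathway; purple marks the 8 enzymes, grey the others, and filled points an adjusted p under 0.05. Fdps stands at 1.37 and Mvd and Mvk at 0.68 and 0.80, while Idi1 and Cyp51 both lie at -0.53.

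Outside these gates few enzymes differed from ungated cells. In erythroid cells Hmgcs1 (-0.53, SE 0.14, adjusted p = 0.03) and Cyp51 (-0.51, SE 0.14, adjusted p = 0.0418) fell, where 9.55% of genes were called. Hmgcs1 was at 18.7 to 30.4 CPM there and at 29.9 to 38.7 CPM in ungated cells. Cyp51 fell also in G2/M-high cells (-0.40, edgeR, adjusted p = 0.0427). The erythroid calls were kept in only 5 (Hmgcs1) and 4 (Cyp51) of 14 alternatives. Both were lost with DESeq2, after thinning and without G2/M-high cells. The call of Cyp51 in G2/M-high cells was kept in 3 of 13 and lost without Elane-high cells. The Dntt lymphoid, megakaryocyte, Pro-B and stem-like gates held 0 calls, with 16.8%, 18.5%, 12.5% and 9.19% of all genes called. Idi1 had its highest mean in the megakaryocyte gate, at 47.2 and 57.2 CPM in control and 52.1 and 41.2 CPM in knockout, and the difference from ungated cells was 0.31 (SE 0.14, adjusted p = 0.137). With all other cells as reference it was 0.46 (edgeR, adjusted p = 0.00679), where 20.6% of genes were called. With that reference stem-like cells were higher in Fdft1 (0.31, edgeR, adjusted p = 0.0228) and lower in Fdps (-0.75, SE 0.11). In this fit 43.4% of genes were called. The reference holds all but 17 of the 1752 Elane-high cells, from whose Fdps counts the set was chosen, so the Fdps value is a description. The Pro-B gate was compared in 3 libraries. Its knockout cells were at 27.1 and 27.6 CPM for Kit, a gene of the sort, against 89.8 and 73.3 CPM over all cells of those libraries.

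Over the 37 combinations of gate and library with at least 20 cells, centred within each library, Idi1 and Cyp51 varied together (Pearson r = 0.67), and so did Idi1 and Sqle (r = 0.64). Fdps ran with Mvd (r = 0.44) and against Cyp51 (r = -0.51) and Idi1 (r = -0.50). These points share cells and libraries, and low counts add noise, so that the values are descriptions. Among 5994 genes of at least 20 CPM the pattern of Fdps was most like that of Dbi (r = 0.89), an acyl-CoA binding protein. It was followed by Dnajc15, Ndufb8, Alyref, Lta4h, Eno1, Cox5a, Psma3, Med21 and Mrps15. Of the other enzymes or listed pathway genes 0 were in the first 50. Mvd, Fdft1 and Lss lay below 20 CPM and were not ranked, nor were listed genes below that level. The sum of the other 7 was most like Tbrg1 and Zfr (r = 0.83 each), with 3 of its own enzymes in the first 50. For the sum of all 8 the nearest was Gtf2e2 (r = 0.73), followed by Ptpn7, Cdc16, Ndufv3, Zdhhc16, Rad23b, Ap2s1, Selm, Abracl and Tm7sf3, and 2 enzymes were in the first 50. Each enzyme is a part of its sum, so its place near that sum is partly given in advance. The rankings for Fdps and for the sum of 7 were added after the values were seen.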

How the data were processed

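Single-cell libraries of sorted LSK cells were made with 10x 3′ chemistry. The authors aligned and counted the reads with Cell Ranger 3.1 against mm10 and deposited raw UMI counts per gene and barcode, which were used as deposited. Barcodes with fewer than 200 genes or over 10% mitochondrial UMIs were removed. Barcodes whose sequence was held by another library with at least 3 times as many UMIs were also left out; the run with all barcodes is an alternative. No doublet caller was run. Cells entered a gate with at least 5 marker UMIs per 10000 and, except for Elane, at least 2 marker UMIs, and a gate was compared in libraries with at least 20 of its cells. UMIs were summed per gate and library and tested with edgeR 4.0.16 (filterByExpr, TMM, quasi-likelihood test, Benjamini-Hochberg adjustment over all genes tested, threshold 0.05), with library as a term in comparisons between gates; DESeq2 1.42.0 was the alternative tool. Poisson 95% intervals cover counting error only. The members and lists were chosen with earlier results of these data known. All 8 enzymes are named throughout, with the 10 genes of the pathway lists of lowest adjusted p among those called and with Insig1, Srebf2 and Msmo1; other genes are named where a count was small. Some genes of the lists are not reported here by name.

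Counts with known changes were simulated from these libraries to check the fits. A first simulation gave every gene its own dispersion, and edgeR's share of false calls came out above the nominal threshold in both comparisons simulated. A second, with the dispersion trend, was added after that was seen and stayed below it. The fits were not altered, both simulations were retained, and calls with an adjusted p just under 0.05 are less certain than their value says. Deviations of libraries with the same replicate number from their group means correlated at r = -0.165 over 5957 genes, so that the numbers were not used to pair libraries.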

Additional observations from a re-analysis of the deposited data

Results flagged for a closer look

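The knockout effect on Fdps was larger in G2/M-high than in ungated cells, by -0.86 on the log2 scale (SE 0.21) in a fit of the difference itself. Of the Elane-high cells, in which the lower Fdps level of the knockout was the reason for choosing these enzymes, 83.2% are G2/M-high, so the value partly repeats that choice and its p is not given. Without the Elane-high cells the difference was -0.25 (edgeR, adjusted p = 0.658) and was not called. In G2/M-high cells with all of them included, Fdps was at 91.0 and 105 CPM in control and at 47.2 and 40.8 CPM in knockout, and in ungated cells the groups overlapped.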

How the results depend on the processing

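Fdps in Elane-high against ungated cells kept its direction and call in all 12 alternatives (1.14 to 1.58 on the log2 scale), and other results moved more. All of these alternatives use Elane-high counts, from which the set was also chosen. Outside the Elane-high gate 336 genes were called between genotypes, against 554 with all deposited barcodes, 207 after thinning, 1014 with DESeq2, 2178 without the filter on low counts, 1107 without G2/M-high cells, 168 in cells with no Elane UMI and few granule UMIs, and 43 to 3163 without single libraries (3163 and 1745 without control replicates 1 and 2, 181 and 43 without knockout replicates 1 and 2). Of the 8 enzymes 0 were called there, 1 without the filter (Fdps -0.50), and 0 to 2 without single libraries (Fdps -0.60 to -0.41). With the replicate block 1261 genes and 0 enzymes were called (Fdps adjusted p = 0.137, edgeR), and with the crossed pairing, chosen after seeing the data, 1633 genes and 1 enzyme (Fdps -0.51). Against ungated cells, 5 enzyme calls over the gates were higher and 5 lower. These became 1 and 0 after thinning, 2 and 0 with DESeq2, 1 and 1 without G2/M-high cells, 3 and 8 without Cst3 as a marker, 0 and 2 in the gates other than Elane-high once Elane-high cells were taken out, and 1 to 5 and 1 to 2 without single libraries. The lower calls numbered 2 without the filter. The share of all genes called moved as well, so these counts are not read as results about the enzymes. In the Elane-high gate it was 44.5%, and 26% after thinning, 30.1% with DESeq2 and 30.5% without G2/M-high cells. It was 47.6% without Cst3 and 30.6% without the filter. For differences of the knockout effect, 1 enzyme passed the threshold (Fdps in G2/M-high cells, with the Elane-high cells that chose the set), 0 with all barcodes or without Elane-high cells, 2 after thinning or without the filter, and 0 to 2 without single libraries. That of Fdps in G2/M-high cells was -0.76 with all barcodes, -0.25 without Elane-high cells and -1.10 to -0.63 without single libraries. Of all genes 5.81% were called for this gate, and 0.382% with all barcodes and 2.43% without Elane-high cells. After thinning 4.13% were called and without the filter 3.52%. The Fdps ratio in Elane-high cells (-1.05) was -1.78 after thinning and -1.504 to -0.70 without single libraries. Gates with Fdps apart numbered 6 of 6, 3 of 6 after thinning and 2 of 3 among cells of 1 gate alone. The share of all genes apart was not computed in the last 2 settings. Thinning turned Fdft1 in Elane-high cells to -0.17 and Fdps in erythroid cells to 0.35. The gates were drawn anew after thinning, so the thinned values describe partly other cells. The causes were not tested. The alternatives with Cst3 removed, another reference, no Elane UMI and Elane-high cells taken out were also chosen after seeing the data. The Elane-high ratio could not be had without G2/M-high cells or without other lineage gates, since too few knockout cells were left. The depth of the knockout Elane-high cells limits every enzyme there.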
